A study of Homo sapiens with 10 samples.

Results

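The GPAT, AGPAT and DGAT genes encode the acyltransferases that build glycerolipids, and 10 of them were followed here: GPAM, GPAT3 and GPAT4, AGPAT1 to AGPAT5, and DGAT1 and DGAT2. They were chosen by gene symbol from a table of 78932 gene identifiers, and all 10 had enough reads to be tested, among 21033 tested genes. RNA was measured in cardiomyocytes made from the established embryonic stem cell line H1. In the CLIPPER knockdown group (5 libraries) beating cells were transfected on day 9 of differentiation with 50 nM of GapmeRs against the RNA named CLIPPER, and in the control group (5 libraries) with the same amount of a control GapmeR; all cells were harvested 48 hours later. GapmeRs are short antisense strands with a DNA core, which lead RNase H to cleave the RNA they bind. The labels do not give their sequences. Both groups share the cell line, the differentiation, the transfection reagent and the culture medium with insulin. The series title links CLIPPER to LPIN1, the phosphatidate phosphatase that acts between the AGPAT and DGAT steps.

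Glycerolipid synthesis begins when a glycerol phosphate acyltransferase (GPAT) adds a fatty acid to glycerol phosphate and makes lysophosphatidate. An acylglycerophosphate acyltransferase (AGPAT) adds a second fatty acid to give phosphatidate, which is either turned into CDP-diacylglycerol on the way to cardiolipin or dephosphorylated by lipins to diacylglycerol. Diacylglycerol feeds phosphatidylcholine and phosphatidylethanolamine, or receives a last fatty acid from a diacylglycerol acyltransferase (DGAT) and becomes triglyceride. The heart burns mainly fatty acids, and its cardiomyocytes keep a small triglyceride store that turns over quickly.

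Libraries held 32879710 to 45052044 counts, and a member had between 106 and 8833 counts in a library. Levels are given as CPM, counts relative to library size after scaling with the trimmed mean of M-values, where 1 count was worth 0.0213 to 0.0315 CPM. The mitochondrial genome held 10.9% to 17.5% of the counts in knockdown and 10% to 12.2% in control libraries. The first principal component separated the groups, and knockdown replicate 2 (-49.5) and replicate 1 (-93.3) lay nearest to the controls (102 to 108). No gene in the annotation used here is named CLIPPER, so the labels were not checked against the target RNA. The cells carried cardiomyocyte markers. The 10 listed markers summed to 9840 to 16100 CPM in knockdown and 25300 to 34900 CPM in control libraries, and 7 of them fell and 0 rose. Calls of markers stand beside a background in which 40.1% of all tested genes were higher and 39.6% lower in the knockdown. All 5 adipocyte markers, ADIPOQ, LEP, FABP4, PLIN1 and CIDEC, were at the edge of detection, with sums of 0.0638 to 0.182 CPM in knockdown and 0.0761 to 0.209 CPM in control libraries. The 8 fibroblast markers, of which 2 rose and 4 fell, summed to 951 to 1120 CPM in knockdown and 1260 to 1380 CPM in control libraries. The 5 smooth muscle markers summed to 771 to 1190 CPM in knockdown and 1360 to 2720 CPM in control libraries, and 4 of them fell. The 6 endothelial markers summed to 8.39 to 16.4 CPM in knockdown and 29.3 to 50 CPM in control libraries. Most of this sum was KDR, with means of 11.6 CPM in knockdown and 36.5 CPM in control libraries. KDR and TEK fell, VWF did not pass, and PECAM1, CDH5 and ERG were too low to test. The 4 epicardial markers summed to 1.64 to 3.34 CPM in knockdown and 3.95 to 5.28 CPM in control libraries. Only 2 of them could be tested, and both fell. Of 5 pluripotency markers LIN28A and DPPA4 rose, and the other 3 were too low to test, POU5F1 with 16 counts in all knockdown and 19 in all control libraries, NANOG with 2 in knockdown and 4 in control, and SOX2 with 23 in knockdown and 6 in control. All 5 summed to 3.06 to 5.09 CPM in knockdown and 0.204 to 1.08 CPM in control libraries. Whether shifts between cell types had a part in the changes below was not tested, and in bulk RNA fewer cells of a type and less RNA per cell cannot be told apart.

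AGPAT1 and AGPAT2 rose in the knockdown, and GPAT3, AGPAT3, AGPAT4, AGPAT5, DGAT1 and DGAT2 fell. The call of AGPAT5 was fragile. GPAM and GPAT4 did not pass the test. Thus 2 of 10 genes were higher and 6 lower at an adjusted p below 0.05 in edgeR's quasi-likelihood test. Over all tested genes 79.7% passed, 40.1% as higher and 39.6% as lower, so the total of 8 is near the background of this comparison. In 7 members the groups did not overlap, 2 of them higher and 5 lower, while over all tested genes this held for 67.5%, 33.7% as higher and 33.8% as lower. The median log2 fold change was -0.45 over the members and 0.00564 over all tested genes. Without knockdown replicates 1 and 2 the counts were 2 higher and 7 lower. In that fit 9049 of all 22028 tested genes were higher and 9111 lower, so this count too stands beside a high background. The sizes ranged from a 6.08-fold fall of AGPAT4 to a 2.34-fold rise of AGPAT1.

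**Figure D1:**
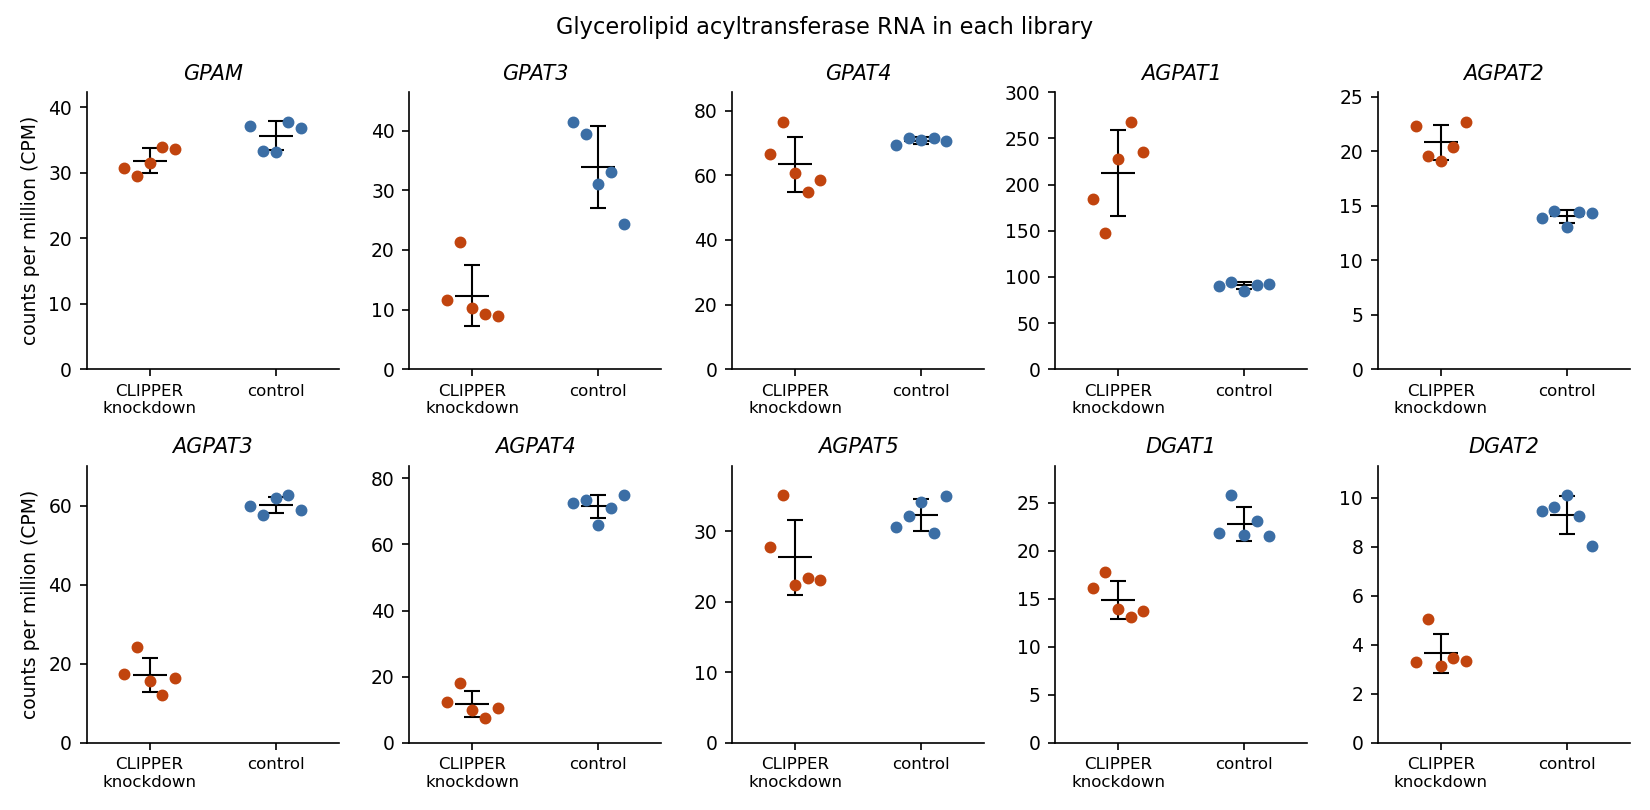
CPM of each of the 10 genes in every library, knockdown (red) left of control (blue), with points in the order of replicate numbers and black bars for the mean ± SD of 5 libraries. AGPAT1 lies between 148 and 268 CPM in knockdown libraries and between 85.2 and 94.7 CPM in control libraries, while AGPAT4 lies between 7.54 and 18.2 CPM in knockdown and between 65.9 and 74.9 CPM in control libraries.

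The GPAT step is served by enzymes in different membranes, and of the 3 genes followed here only GPAT3 passed the test with all libraries. GPAM, which encodes the GPAT of the outer mitochondrial membrane (also called GPAT1), lies on chromosome 10 (GRCh38, 112149865 to 112215377, minus strand; ENSG00000119927). Its level was 30.7, 29.5, 31.5, 33.9 and 33.6 CPM in knockdown replicates 1 to 5, and 37.1, 33.4, 33.2, 37.8 and 36.8 CPM in control replicates 1 to 5. The knockdown libraries were mostly lower but overlapped the 2 lowest controls. The log2 fold change of -0.16 ± 0.0774 (SE) did not pass edgeR's quasi-likelihood test (adjusted p = 0.0692), its 95% interval ran from -0.33 to 0.0051, and its sign turned with upper-quartile scaling (0.038). Without control replicate 2, or without control replicate 3, it passed (log2 fold change -0.21 in both, adjusted p = 0.0387 and 0.0359).

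GPAT3 and GPAT4 are the related enzymes of the endoplasmic reticulum, of which GPAT4 can also move onto lipid droplets. GPAT3 (chromosome 4, 83535914 to 83605875, plus strand; ENSG00000138678) had 11.6, 21.3, 10.3, 9.33 and 8.98 CPM in the knockdown libraries, against 41.5, 39.4, 31.0, 33.0 and 24.3 CPM in the control libraries. The groups did not overlap, and knockdown replicate 2 was the highest of its group and control replicate 5 the lowest of the controls. GPAT3 fell 2.74-fold, with a log2 fold change of -1.46 ± 0.238 (SE, edgeR adjusted p = 0.000109). It had the widest spread among controls of the 3 GPAT genes, 33.8 ± 6.89 CPM (SD, n = 5).

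GPAT4 (chromosome 8, 41577187 to 41625001, plus strand; ENSG00000158669) had 66.6, 76.6, 60.7, 54.7 and 58.5 CPM in the knockdown libraries, against 69.3, 71.5, 70.9, 71.7 and 70.5 CPM in the control libraries. The controls were nearly equal, and 1 knockdown library lay above all of them and the other 4 below. The log2 fold change was -0.16 ± 0.0928 (SE), with a 95% interval from -0.36 to 0.044, and did not pass (edgeR adjusted p = 0.133). That outcome rested on knockdown replicate 2, without which the value was -0.25 (adjusted p = 0.00648). It was -0.30 without replicates 1 and 2 (adjusted p = 0.000291), and 0.035 with upper-quartile scaling. The long non-coding gene ENSG00000264578, on the other strand, shares 729 exon bases with GPAT4 and had 0 counts in all knockdown and 20 in all control libraries.

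Because both members of a pair are read in the same library, their ratio does not depend on scaling. The log2 ratio of GPAT4 to GPAM counts was 0.98 ± 0.271 in the knockdown and 0.99 ± 0.0966 in the control group (SD, n = 5). The difference of -0.0061 did not pass (two-sided p = 0.984 by exact permutation of the libraries, adjusted p = 0.984 over 3 ratios). The knockdown libraries spread from 0.69 to 1.37 and enclosed the control range of 0.90 to 1.10.

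The AGPAT step showed the largest rise and the largest fall of the family. AGPAT1 and AGPAT2 are closely related enzymes of the endoplasmic reticulum with AGPAT activity shown in cells and in vitro, and loss of AGPAT2 causes a congenital lipodystrophy in humans. AGPAT3, AGPAT4 and AGPAT5 are further relatives. AGPAT3 is found in the endoplasmic reticulum and Golgi, AGPAT4 was placed at mitochondria in mouse brain, and AGPAT5 at mitochondria in other cells. The promoters of the AGPAT1, AGPAT2, AGPAT3 and AGPAT4 entries in RefSeq (GRCh38.p14, 250 bases before to 50 after the start) are shown because these genes moved in opposite directions. They are chr6:32178059-32178358 (minus strand), chr9:136687408-136687707 (minus strand), chr21:43916538-43916837 (plus strand) and chr6:161274012-161274311 (minus strand). AGPAT1 has 5 starts in that table and AGPAT3 has 2, of which the outermost is given. In AGPAT3 that start lies inside the GENCODE span of the gene. Capitals mark CCAAT or its complement ATTGG (the CCAAT box), GGGCGG or CCGCCC (the GC box), CACGTG (an E-box) and TATAAA or TTTATA (the TATA box).
AGPAT1: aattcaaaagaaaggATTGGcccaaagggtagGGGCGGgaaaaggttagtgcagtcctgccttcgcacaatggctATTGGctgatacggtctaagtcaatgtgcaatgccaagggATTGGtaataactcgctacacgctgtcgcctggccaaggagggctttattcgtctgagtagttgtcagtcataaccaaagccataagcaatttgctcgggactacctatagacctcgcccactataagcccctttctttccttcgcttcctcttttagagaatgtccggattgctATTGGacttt
AGPAT2: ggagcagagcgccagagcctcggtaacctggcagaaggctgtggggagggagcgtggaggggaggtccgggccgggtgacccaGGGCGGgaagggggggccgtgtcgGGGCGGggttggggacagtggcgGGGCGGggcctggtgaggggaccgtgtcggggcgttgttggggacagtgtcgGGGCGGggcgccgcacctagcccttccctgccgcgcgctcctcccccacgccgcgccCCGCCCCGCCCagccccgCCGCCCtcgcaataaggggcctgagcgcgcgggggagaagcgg
AGPAT3: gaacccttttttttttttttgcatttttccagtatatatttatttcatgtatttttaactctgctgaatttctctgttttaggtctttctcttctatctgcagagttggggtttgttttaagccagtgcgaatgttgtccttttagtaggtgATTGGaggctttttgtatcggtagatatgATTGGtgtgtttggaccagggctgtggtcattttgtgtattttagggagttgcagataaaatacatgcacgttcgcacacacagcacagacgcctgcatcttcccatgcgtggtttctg
AGPAT4: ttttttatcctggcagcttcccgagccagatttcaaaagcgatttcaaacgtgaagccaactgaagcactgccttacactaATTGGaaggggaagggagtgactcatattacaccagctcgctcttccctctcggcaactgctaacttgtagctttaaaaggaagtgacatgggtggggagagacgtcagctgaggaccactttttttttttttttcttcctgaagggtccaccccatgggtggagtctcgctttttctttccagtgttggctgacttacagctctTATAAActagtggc

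These 4 windows hold different letters. The AGPAT1 window has 4 CCAAT boxes and 1 GC box, and that of AGPAT2 has 7 GC boxes, 2 of which overlap, and 0 CCAAT boxes. The AGPAT3 window has 2 CCAAT boxes and 0 GC boxes, and that of AGPAT4 has 1 CCAAT box, 0 GC boxes and 1 TATAAA match. This TATAAA lies among the 50 bases after the start, not before it. The last ATTGG of AGPAT1 and the last CCGCCC of AGPAT2 also lie after the start. Among 34796 promoters of the same length, on both strands, 34.6% hold a CCAAT box, 44.9% a GC box, 7.20% the E-box and 11.6% a TATA box. GC content was 47.7% for AGPAT1, 77.3% for AGPAT2, 39.3% for AGPAT3 and 46.7% for AGPAT4. The other AGPAT1 starts held 0 or 1 CCAAT box and 0 to 2 GC boxes each. Starts 2 and 3 of AGPAT1, counted from the outermost, have overlapping windows that hold the same TTTATA match. It lies just after start 2 and well before start 3. The other AGPAT3 start held 0 CCAAT boxes and 0 GC boxes with a GC content of 65.3%. A match describes the letters and does not show a binding site.

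AGPAT1 (chromosome 6, 32168212 to 32178096, minus strand; ENSG00000204310) had 184, 148, 228, 268 and 235 CPM in the knockdown libraries, against 90.4, 94.7, 85.2, 90.8 and 92.7 CPM in the control libraries. Every knockdown library was above every control. AGPAT1 rose 2.34-fold, with a log2 fold change of 1.23 ± 0.140 (SE, edgeR adjusted p = 5.41e-06). It was the most abundant member in both groups. The libraries came from a stranded kit, but the strand setting of the counting is not given in the sources used here, and AGPAT1 shares 1087 exon bases with the read-through gene PPT2-EGFL8 and 70 with EGFL8, both on the other strand. These partners rose too. PPT2-EGFL8 had a log2 fold change of 1.42 (12.9 CPM in knockdown, 4.79 CPM in control libraries). EGFL8 had one of 1.02 (12.4 CPM in knockdown, 6.13 CPM in control libraries). Without the strand setting the count of AGPAT1 is therefore uncertain, by an amount that these values do not give. The same holds for its ratio to AGPAT2 and its share of the AGPAT step below.

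AGPAT2 (chromosome 9, 136673143 to 136687457, minus strand; ENSG00000169692) had 22.3, 19.6, 19.1, 20.4 and 22.7 CPM in the knockdown libraries, against 13.9, 14.5, 13, 14.4 and 14.3 CPM in the control libraries. The groups were clearly apart, and no annotated gene overlaps AGPAT2. It rose 1.49-fold, with a log2 fold change of 0.57 ± 0.0829 (SE, edgeR adjusted p = 3.83e-05). AGPAT2 rose less than AGPAT1. The log2 ratio of AGPAT2 to AGPAT1 counts was -3.32 ± 0.339 in the knockdown and -2.69 ± 0.0217 in the control group (SD, n = 5). The ratio was 1.55-fold lower (difference -0.63), in 5 of 5 knockdown libraries (two-sided p = 0.00794 by exact permutation of the libraries, which is the smallest possible with 5 against 5, and adjusted p = 0.0119 over 3 ratios).

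AGPAT3 (chromosome 21, 43865223 to 43987592, plus strand; ENSG00000160216) had 17.4, 24.2, 15.7, 12.1 and 16.5 CPM in the knockdown libraries, against 60.0, 57.6, 61.9, 62.7 and 59.0 CPM in the control libraries. Its fall was 3.50-fold, with a log2 fold change of -1.81 ± 0.150 (SE, edgeR adjusted p = 4.4e-07), and the groups did not overlap. A coding gene on the same strand, ENSG00000288593, shares 40 exon bases with AGPAT3 and had 0 counts in either group.

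AGPAT4 (chromosome 6, 161129967 to 161274061, minus strand; ENSG00000026652) had 12.3, 18.2, 9.98, 7.54 and 10.6 CPM in the knockdown libraries, against 72.4, 73.6, 65.9, 71.0 and 74.9 CPM in the control libraries. No annotated gene overlaps it. With a log2 fold change of -2.60 ± 0.193 (SE, edgeR adjusted p = 2.01e-07) it had the largest change of the family, 6.08-fold lower. In control libraries AGPAT4 had 71.5 ± 3.48 CPM and AGPAT1 90.8 ± 3.55 CPM (SD, n = 5), before any correction for length.

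AGPAT5 (chromosome 8, 6708642 to 6761503, plus strand; ENSG00000155189) had 27.7, 35.1, 22.3, 23.3 and 23.1 CPM in the knockdown libraries, against 30.6, 32.1, 34.2, 29.7 and 35.0 CPM in the control libraries. Knockdown replicate 2 was above all controls and the other 4 knockdown libraries were below all of them. The log2 fold change of -0.30 ± 0.126 (SE) passed narrowly (edgeR adjusted p = 0.046), but 7 of the 10 fits that each omitted 1 library did not. The omitted libraries were knockdown replicates 1, 3, 4 and 5 and control replicates 2, 3 and 5, with values of -0.32 to -0.23. Nor did it pass with upper-quartile scaling (-0.11, adjusted p = 0.388). Without knockdown replicates 1 and 2 the value was -0.51 (adjusted p = 1.79e-05). A processed pseudogene copy, AGPAT5P1, had 0 counts in either group.

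Both genes of the last step fell. DGAT1 and DGAT2 catalyse the same reaction but are unrelated in sequence; DGAT1 belongs to the membrane-bound O-acyltransferases and also esterifies fatty acids taken up from outside, while DGAT2 sits in the endoplasmic reticulum and on lipid droplets and is linked to newly made fatty acids. DGAT1 (chromosome 8, 144314584 to 144326910, minus strand; ENSG00000185000) had 16.1, 17.8, 13.9, 13.1 and 13.7 CPM in the knockdown libraries, against 21.9, 25.8, 21.7, 23.1 and 21.5 CPM in the control libraries. All knockdown libraries were below all controls. DGAT1 fell 1.53-fold, with a log2 fold change of -0.61 ± 0.104 (SE, edgeR adjusted p = 0.00015). The heat shock factor gene HSF1, on the other strand, shares 137 exon bases with DGAT1 and did not pass the test (log2 fold change 0.12, edgeR adjusted p = 0.123). HSF1 had 82.8 CPM in the knockdown and 76.1 CPM in the control group, more than DGAT1, so without the strand setting the count of DGAT1 and its ratio to DGAT2 are uncertain. On the same strand the long non-coding gene ENSG00000254690 shares 444 exon bases with DGAT1. It had 0 counts in all knockdown and 5 in all control libraries.

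DGAT2 (chromosome 11, 75759512 to 75801535, plus strand; ENSG00000062282) had 3.30, 5.04, 3.12, 3.45 and 3.34 CPM in the knockdown libraries, against 9.45, 9.62, 10.1, 9.27 and 8.04 CPM in the control libraries. It was the least abundant member and its groups did not overlap. DGAT2 fell 2.54-fold, with a log2 fold change of -1.34 ± 0.144 (SE, edgeR adjusted p = 3.15e-06). Antisense transcripts of the DGAT2-DT gene share 117 exon bases with DGAT2 and had 1 count in all knockdown and 0 in all control libraries. DGAT2 fell more than DGAT1. The log2 ratio of DGAT2 to DGAT1 counts was -2.04 ± 0.184 in the knockdown and -1.29 ± 0.140 in the control group (SD, n = 5). The ratio was 1.68-fold lower (difference -0.75), in 5 of 5 knockdown libraries (two-sided p = 0.00794 by exact permutation of the libraries, which is the smallest possible with 5 against 5, and adjusted p = 0.0119 over 3 ratios).

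Levels of different genes were compared per kilobase (kb) of merged exons, in CPM per kb. AGPAT1 led in both groups, with 59.2 ± 13 in the knockdown and 25.3 ± 0.988 in the control group (SD, n = 5). In the knockdown AGPAT2 (11.4) and GPAT4 (7.99) followed, both apart from their neighbours. AGPAT5 (4.22), DGAT1 (3.61), GPAT3 (3.39) and GPAM (3.25) then overlapped in that order, and AGPAT3 (1.39), AGPAT4 (0.822) and DGAT2 (0.462) came last, also with overlaps between neighbours. In control libraries GPAT3 (9.34) and GPAT4 (8.91) overlapped and came next, before AGPAT2 (7.65), and the range of GPAT3 (6.70 to 11.5) also enclosed that of AGPAT2 (7.12 to 7.94). DGAT1 (5.52), AGPAT5 (5.18), AGPAT4 (5.02) and AGPAT3 (4.89) followed, with overlaps between neighbours only among these genes. GPAM (3.64) and DGAT2 (1.18) were last, both apart from their neighbours. This order depended on the length used. With canonical transcript lengths AGPAT3 (9.18) moved from place 8 to 4 in the control group, before AGPAT2 (9.07) with overlap, and AGPAT5 from 6 to 8. In the knockdown GPAM moved from place 7 to 5, and AGPAT4 (1.48) came last, with overlap, after DGAT2 (1.52). Summed per step with merged exons, AGPAT transcripts reached 77.0 ± 11.7 CPM per kb in the knockdown and 48.0 ± 1.37 in the control group. GPAT transcripts reached 14.6 ± 2.29 in the knockdown and 21.9 ± 1.86 in the control group, and DGAT transcripts 4.07 ± 0.560 in the knockdown and 6.70 ± 0.469 in the control group (SD, n = 5). These sums did not overlap between the groups.

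AGPAT1 made up a larger part of the AGPAT step in every knockdown library than in any control. Its share of the summed level was 76.2% ± 5.73 in the knockdown and 52.6% ± 0.696 in the control group (SD, n = 5). AGPAT4 made up 1.14% ± 0.587 in the knockdown and 10.5% ± 0.255 in the control group, and AGPAT3 made up 1.91% ± 0.811 in the knockdown and 10.2% ± 0.597 in the control group. AGPAT5 made up 5.73% ± 2.16 in the knockdown and 10.8% ± 0.842 in the control group. The share of AGPAT2 was 15.1% ± 2.42 in the knockdown and 15.9% ± 0.341 in the control group, with overlap, although its CPM rose. In the GPAT step GPAT4 held 54.7% ± 2.04 in the knockdown and 41.0% ± 3.67 in the control group, GPAM 22.7% ± 4.20 in the knockdown and 16.7% ± 1.83 in the control group, and GPAT3 22.5% ± 5.27 in the knockdown and 42.3% ± 5.26 in the control group. DGAT1 held 88.7% ± 1.27 of its step in the knockdown and 82.4% ± 1.42 in the control group. These shares are descriptions without a test, and they depend on the length assigned to each gene. With the length of the canonical transcript DGAT1 held 73.0% in the knockdown and 61.7% in the control group.

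**Figure D2:**
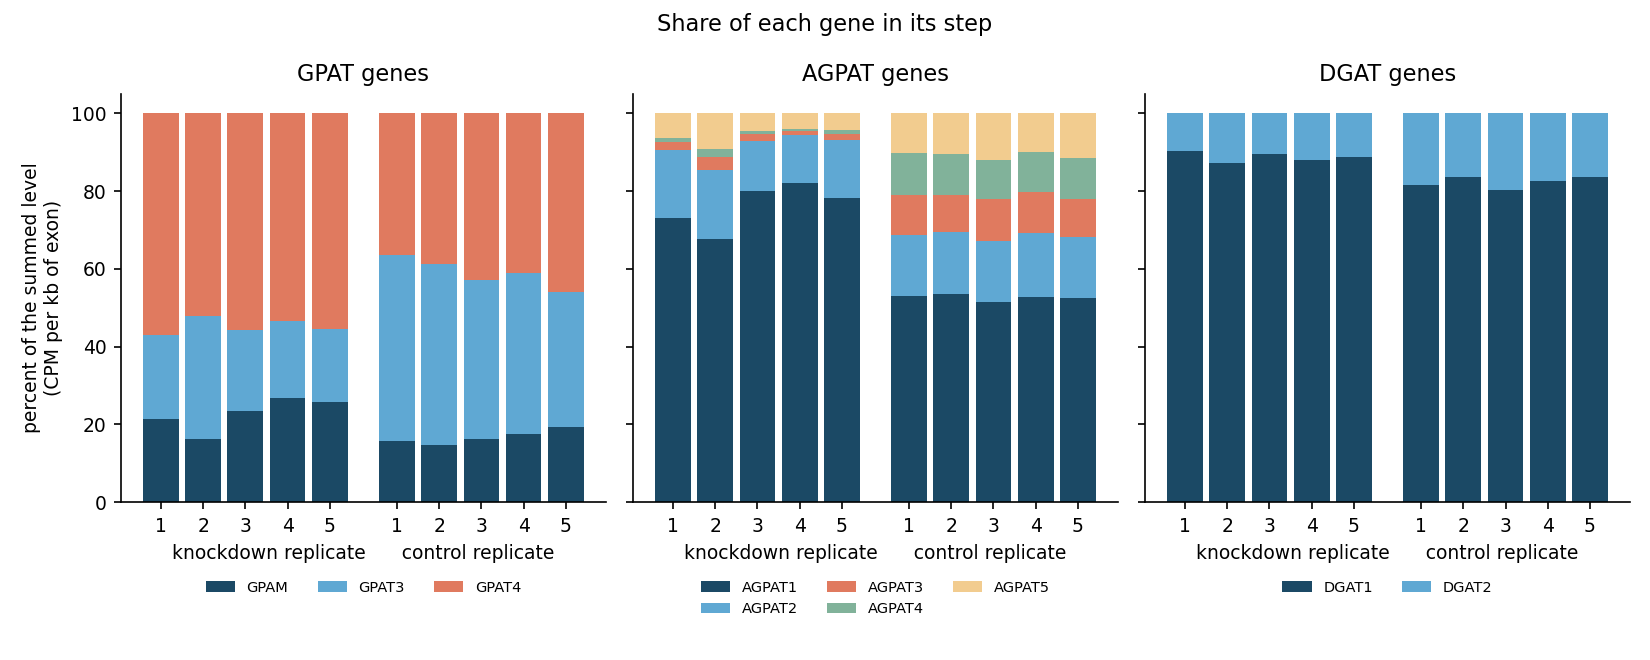
Stacked bars of the percent that each gene contributes to the summed level (CPM per kb of merged exons) of its step, 1 bar per library, knockdown replicates left and control replicates right. AGPAT1 takes 67.8% to 82.0% of the AGPAT sum in knockdown libraries and 51.6% to 53.5% in control libraries.

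Knockdown replicate 2 lay nearest to the control mean in 7 of the 10 genes, all of them among the 8 that passed the test. For AGPAT2 the nearest was replicate 3, for GPAM replicate 4 and for GPAT4 replicate 1. Among control libraries the SD ran from 0.608 CPM around 14 for AGPAT2 to 6.89 CPM around 33.8 for GPAT3. For GPAT3 and GPAM the SD was wider among control than among knockdown libraries (5.16 and 1.87 CPM in knockdown, 6.89 and 2.18 CPM in control libraries).

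Gene span, the length from start to end with introns, moved with the direction of change. AGPAT1 spans 9.88 kb, and the 2796 tested coding genes of up to 10 kb had a median log2 fold change of 0.77, with 66.5% higher. AGPAT2 and DGAT1 span 14.3 and 12.3 kb. The 4068 coding genes of 10 to 30 kb had a median of 0.27, with 48.9% higher and 29.1% lower, and DGAT1 went against that median. GPAM, GPAT3, GPAT4, AGPAT5 and DGAT2 span 42.0 to 70.0 kb, where 4783 coding genes had a median of -0.48 and 57.0% were lower. GPAT3 and DGAT2 lay below that median and GPAM, GPAT4 and AGPAT5 above it. AGPAT3 and AGPAT4 span 122 and 144 kb, where 2434 coding genes of 100 to 300 kb had a median of -1.30 and 82.7% were lower. Over the 10 members the rank correlation of log2 fold change with span was -0.76, a description over genes measured in the same libraries. The part of gene span in these changes was not tested.

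**Figure D3:**
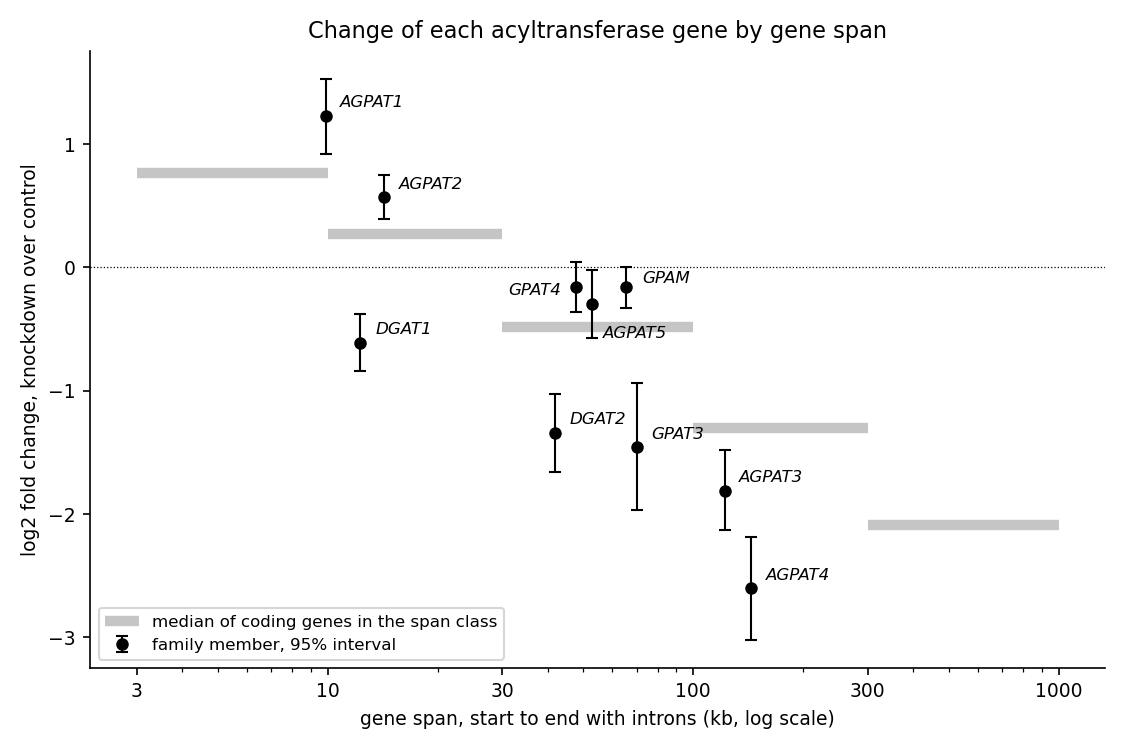
Log2 fold change (knockdown over control, with 95% intervals) of the 10 genes against gene span in kb on a log axis, with grey bars for the median of all tested coding genes of each span class (the outer classes are cut at the edges of the axis). AGPAT1 (1.23) and AGPAT4 (-2.60) mark the short and the long end of the family, and DGAT1 (-0.61) lies below its class median of 0.27.

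The genes whose log2 CPM over the 10 libraries were most like AGPAT4, by Pearson's r among 14776 coding genes, were NPLOC4 and GPC6 (r = 0.9995 each) and LAMB1 (r = 0.9994). NPLOC4 had 26.2 ± 7.67 CPM in the knockdown and 130 ± 5.57 CPM in the control group, and GPC6 had 13.2 ± 4.71 CPM in the knockdown and 91.8 ± 3.90 CPM in the control group (SD, n = 5). LAMB1, a laminin chain, had 208 ± 35.7 CPM in the knockdown and 534 ± 20.3 CPM in the control group. The genes most like AGPAT1 were C14orf119 (r = 0.9989), FAM89B (r = 0.9988) and ALG3 (r = 0.9986), which rose by 1.22, 1.75 and 1.48 on the log2 scale. Apart from GPC6, each of these genes overlaps another coding gene, so their counts are uncertain. Correlations above 0.9 were common. Among the 14776 genes 5445 had one with AGPAT4 and 3487 with AGPAT1.

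Other acyltransferases of glycerolipids and sterols were counted together with AGK, a lipid kinase that makes lysophosphatidate from monoacylglycerol. Of 15 tested genes on this list of 19, 2 rose and 12 fell, AGK among those that fell (log2 fold change -1.31 ± 0.175 SE), with a median log2 fold change of -0.89. Over all tested genes 79.7% passed, 40.1% as higher and 39.6% as lower. GNPAT, which starts the synthesis of ether lipids in peroxisomes, had 30.2 ± 5.51 CPM in the knockdown and 94.7 ± 3.30 CPM in the control group (SD, n = 5) and fell 3.13-fold. MBOAT2, a lysophospholipid acyltransferase, fell 3.38-fold (log2 fold change -1.76 ± 0.175 SE). TMEM68, whose product can make triglyceride without the DGAT enzymes, rose 1.37-fold, and LPCAT3, which places polyunsaturated fatty acids into phosphatidylcholine, rose 1.22-fold with overlap between the groups. The count of LPCAT3 is uncertain because 3 coding genes overlap it on the other strand.

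Genes that supply glycerol phosphate and acyl-CoA split. Of 16 tested genes on a list of 17, 3 rose and 10 fell (median log2 fold change -0.52), beside 40.1% higher and 39.6% lower over all tested genes. GPD1, the cytosolic enzyme that makes glycerol phosphate, had 10.7 ± 1.05 CPM in the knockdown and 3.11 ± 0.458 CPM in the control group (SD, n = 5) and rose 3.42-fold. GPD2, the mitochondrial enzyme that consumes it, had 6.45 ± 1.61 CPM in the knockdown and 28.6 ± 0.928 CPM in the control group and fell 4.41-fold. DBI, the acyl-CoA binding protein, rose 2.24-fold, and the fatty acid receptor CD36 fell 4.32-fold, the last with uncertain counts because GNAT3 overlaps it on the other strand.

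Of 21 tested genes on a list of 22 that act on phosphatidate and diacylglycerol or on lipid droplets, 6 rose and 13 fell (median log2 fold change -0.50). The shares over all tested genes were 40.1% higher and 39.6% lower. LPIN1, the lipin of the series title, had 55.2 ± 8.56 CPM in the knockdown and 118 ± 5.57 CPM in the control group (SD, n = 5). CDS2, which draws phosphatidate towards CDP-diacylglycerol, had 13.2 ± 4.82 CPM in the knockdown and 74.3 ± 3.92 CPM in the control group. The lipid droplet coat gene PLIN2 rose 5.24-fold, while the related coat genes PLIN3, PLIN4 and PLIN5, named after their values were seen, fell (log2 fold changes of -0.75, -0.61 and -2.69). BSCL2, which encodes seipin, a protein of lipid droplet formation, had a log2 fold change of 3.84 ± 0.217 (SE), a value that is uncertain because the read-through gene HNRNPUL2-BSCL2 and LRRN4CL overlap it on the same strand. With upper-quartile scaling 6 genes of this list rose and 8 fell. That scaling also moved the background, with 9566 of all 21033 tested genes higher and 7277 lower.

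Regulators of lipid synthesis also split, 6 of 16 tested genes rising and 9 falling on a list of 17 (median log2 fold change -0.86). SREBF1, whose product activates fatty acid and glycerolipid synthesis genes including GPAM, had 64.8 ± 5.68 CPM in the knockdown and 30.5 ± 2.50 CPM in the control group (SD, n = 5) and rose 2.12-fold. SREBF2, the counterpart for cholesterol synthesis, had 74.3 ± 29.4 CPM in the knockdown and 404 ± 52.4 CPM in the control group and fell 5.43-fold. NR1H3, a liver X receptor, rose 2.75-fold, and PPARD, a nuclear receptor that activates fatty acid oxidation genes, fell 2.97-fold. Counts of SREBF1 and NR1H3 are uncertain because RAI1 and ACP2 overlap them on the other strand. The adjusted p-values of the 16 genes named from the 4 lists (edgeR, quasi-likelihood) ranged over 2.19e-08 to 0.0107. Over all tested genes 40.1% were higher and 39.6% lower, and the lists are described by their counts without a test of the list.

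**Figure D4:**
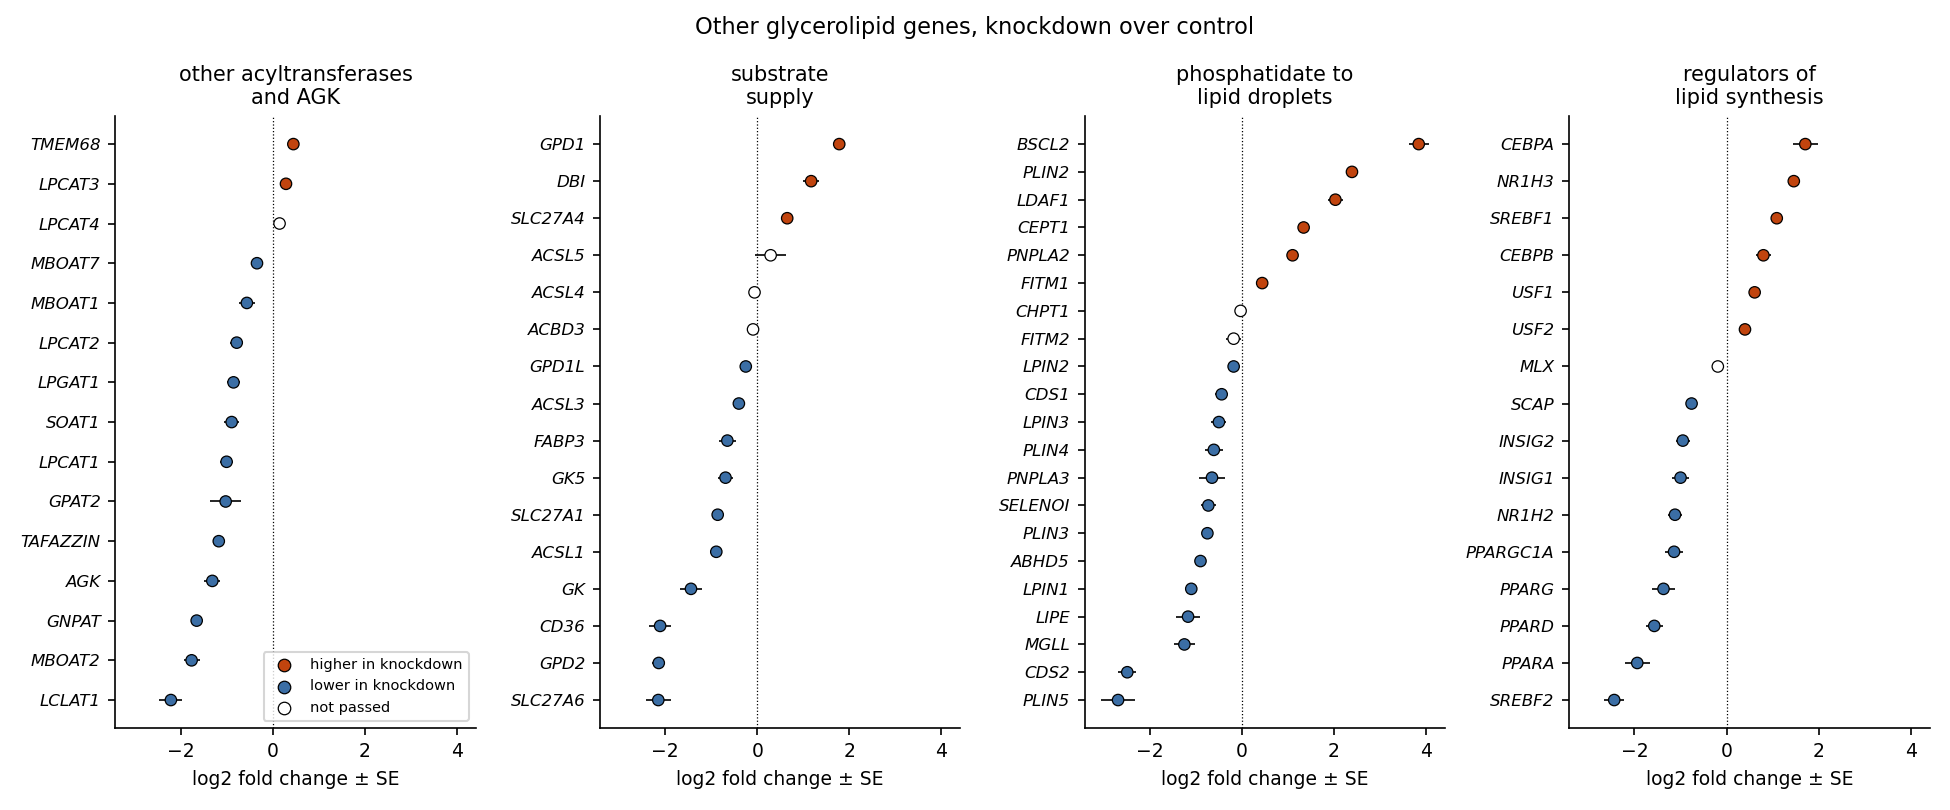
Log2 fold change ± SE (knockdown over control) of every tested gene on the 4 lists, ordered by size within a list, red for higher, blue for lower and white for genes that did not pass. The highest value is 3.84 (BSCL2), and 12 of the 15 genes in the panel of other acyltransferases and the kinase AGK are on the lower side.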

How the data were processed

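RNA was measured in 5 CLIPPER knockdown and 5 control libraries of total RNA, with groups taken from the sample titles. The deposited file holds raw counts of reads per gene, not normalised. The authors used Trim Galore 0.65, STAR 2.7.0 on GRCh38 and HTSeq, per the submitters' processing notes; the design text gives GENCODE 38 as the annotation. Libraries were prepared with a stranded total RNA kit that removes ribosomal RNA, per the labels' protocols, and the strand setting of HTSeq is not given in the sources used here. Names, positions and lengths came from GENCODE release 44 on the same assembly, which matched 61481 of 78932 identifiers, and the other 17451 held 0.25% to 0.408% of the counts. Control columns, spelled differently from the labels, were matched through the titles, and 0 sample columns were left unmapped.

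Counts were tested with edgeR 4.0.16 in R 4.3.3 (trimmed mean of M-values, filterByExpr, robust quasi-likelihood, Benjamini-Hochberg over 21033 genes, threshold 0.05). Scaling assumes that rises and falls balance, and each fold change is therefore relative to most other genes. The SE was derived from the F statistic of each gene. Ratios of 2 genes used counts plus 0.5 and exact permutation tests. The script was tested on simulated data in which few genes changed, so that test does not cover scaling where most genes are called, as here. Every pair of libraries differed by more than sampling noise (chi-square at least 4.13 per degree of freedom). The labels do not say whether replicates are separate cultures, so p-values measure only the spread between these samples, which may be technical.

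The members and lists were chosen with earlier results of these data known. Named genes were all 10 members, up to 2 higher and 2 lower genes of smallest p per list, and the 3 coding genes most like the member of smallest p in each direction (Pearson's r of log2 CPM, prior count 2). Alternatives were upper-quartile scaling, DESeq2 size factors, limma-voom (limma 3.58.1), DESeq2 1.42.0, other filters, no robust dispersion, removal of mitochondrial genome genes, the replicate number as a block, libraries left out and, for ratios, a pseudocount of 1. Counts of members and list genes called, and shares with canonical transcript length, were added as results after seeing the data. Promoters came from RefSeq (GRCh38.p14) for 6 of the 10 members, 12 entries in all. Figures used matplotlib 3.10.9. Counting intervals were not needed, since every member had at least 106 counts in each library.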

Additional observations from a re-analysis of the deposited data

Results flagged for a closer look

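Of 26 groups of 5 values tested (the CPM of 10 genes and the 3 log2 ratios, in both groups), 3 held a library far from the other 4, judged by Dixon's ratio of the gap to the range above 0.71. Chance flags about 1 in 20 such groups. GPAT3 had 21.3 CPM in knockdown replicate 2, against 8.98 to 11.6 CPM in the other knockdown libraries, and DGAT2 had 5.04 CPM in the same library, against 3.12 to 3.45 CPM. On the first principal component that library had the value closest to the controls (-49.5, against 102 to 108 in control libraries). The log2 ratio of AGPAT2 to AGPAT1 was -2.66 in control replicate 4, against -2.71 to -2.70 in the other controls, a gap that is small beside the difference between the groups (-0.63).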

How the results depend on the processing

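Over the 20 alternatives run for each gene, GPAT3, AGPAT1, AGPAT2, AGPAT3, AGPAT4, DGAT1 and DGAT2 kept their direction and their call. Upper-quartile scaling shifted all genes by 0.20 on the log2 scale, which turned GPAM to 0.038 and GPAT4 to 0.035 and took the call from AGPAT5 (-0.11). AGPAT5 also lost it with DESeq2 size factors and in DESeq2 (-0.27 in both), without a filter (-0.33) and with a mean of at least 1 CPM (-0.25). Without knockdown replicates 1 and 2, GPAT4 passed (-0.30). With each library left out in turn, the log2 fold change was -0.21 to -0.14 for GPAM, -0.25 to -0.10 for GPAT4 and -0.43 to -0.23 for AGPAT5, and the calls over all genes were 16361 to 17650 (16773 with all libraries). The difference of the GPAT4/GPAM ratio was -0.10 to 0.068 in the same way, with a turned sign without knockdown replicate 3 (0.0043), 4 (0.068) or 5 (0.04) and control replicate 2 or 3 (0.02 each). The differences of the AGPAT2/AGPAT1 and DGAT2/DGAT1 ratios kept their sign in all 13 alternatives but missed the threshold without knockdown replicates 1 and 2 (-0.86 and -0.74, adjusted p = 0.0536 in the exact permutation test) and in the replicate block (-0.63 and -0.75, adjusted p = 0.0938 in the exact permutation test), designs whose fewer labelings cannot pass here. Deviations of same-numbered libraries correlated between -0.17 and 0.221, and 2 of the 5 knockdown libraries correlated best with the control of their own number. The labels do not say whether the numbers pair the samples, and these few values cannot decide it. With the replicate number as a block 16425 genes were called and AGPAT5 had -0.32. Members called were 7 to 9 over the alternatives. Over all tested genes the fewest calls came with a mean of at least 1 CPM (13706 of 16365) and the most without a filter (20167 of 45791). With canonical transcript lengths the step shares moved to 55.3% (AGPAT1, control), 12.1% (AGPAT4, control), 52.3% (GPAT4, knockdown), and 73.0% (DGAT1, knockdown) and 61.7% (DGAT1, control). DGAT2, with 106 counts in its lowest library, is the member that depth limits most.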
